A study of Mus musculus with 19 samples.

Results

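The interaction between α9k1 expression and dorsal root crush is the difference between 2 differences. For each gene it is the α9k1-crush minus GFP-crush difference, less the α9k1-naive minus GFP-naive difference, on the log2 scale. It was computed for all 12629 genes of the 12629 in the table, and all 19 libraries entered. A positive interaction means that α9k1 stood higher relative to GFP after crush than without it, and a negative interaction means the opposite. The sign alone does not say which of the 4 groups moved, so the values of each group are given beside it for part of the genes named. For the others only the interaction is given.

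The libraries were RNA-seq profiles of GFP-expressing cells that were sorted from left C5 to C8 dorsal root ganglia (DRGs) 8 weeks after surgery. All animals had received AAV5 into these ganglia: AAV5-fGFP in the GFP groups, and AAV5-α9-V5 together with AAV5-kindlin1-GFP in the α9k1 groups. The crush groups also had their dorsal roots crushed, and the naive groups did not. There were 5 GFP-naive and 4 GFP-crush libraries, and 6 α9k1-naive and 4 α9k1-crush libraries. In the study's methods a CMV promoter drove fGFP and kindlin1-GFP and a CAG promoter drove α9-V5, so that the sort selected for GFP and not for α9. The labels name C57BL/6 mice, whereas the methods name adult male Lewis rats, and the reads were aligned to the mouse genome. The study calls the libraries of a condition biological replicates. Whether each came from its own animal is not given in the labels, and p-values measure the spread between libraries. The libraries had 36.4 to 87.6 M read pairs, of which 47.5% to 54.1% aligned.

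Integrins are receptors for the extracellular matrix, made of an α and a β chain, and α9β1 is a receptor for tenascin-C, a matrix protein of the injured spinal cord. Kindlin-1 binds the cytoplasmic tail of β integrins and brings the receptor into its active state. The dorsal root carries the central axons of DRG neurons, whose cell bodies lie in the ganglion beside satellite glia, Schwann cells, macrophages, endothelial cells and fibroblasts. A crushed dorsal root cuts these central axons off from the spinal cord, and the interaction shows where the transcriptome of the ganglion cells depended on the virus and the crush together.

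The interaction was tested with limma with the first 3 principal components of the 48 alignment and sequencing metrics as covariates (AlignSeq.PC1 to PC3), with a threshold of 0.1 on the p adjusted after Benjamini and Hochberg. Where nothing else is said, an adjusted p comes from the model with covariates. At this threshold 171 genes (1.35% of those tested) had a positive and 107 genes (0.847%) a negative interaction. In the plain contrast of group means, without covariates, 2943 genes (23.3%) were positive and 2027 (16.1%) negative. Of the 278 genes called with covariates, 258 were called with the same sign without them, 157 of them positive and 101 negative, and 3 had the opposite sign. The median interaction over all genes was 0.07 with covariates and 0.08 from group means. The covariates moved with the groups: 74.5% of the variance of AlignSeq.PC3 lay between groups, and its mean was 1.02 ± 0.97 (SD) over the 5 GFP-naive and 1.73 ± 1.71 over the 6 α9k1-naive libraries, against -0.32 ± 1.28 over the 4 GFP-crush and -3.56 ± 0.83 over the 4 α9k1-crush libraries. Adjusting for them raised the variance of the interaction from 0.867 to 2.78 times the variance within groups. The part of these metrics in the interaction cannot be told apart from that of the groups. With libraries centred on their medians, the median interaction over all genes was -0.06, and 118 genes were positive against 167 negative. With quantile normalization there were 128 positive and 134 negative genes. Which sign holds more genes thus depended on the scaling, and every gene given with an interaction below kept its sign under all settings in which it was tested. The setting without the 25% of genes with the lowest mean did not test all of them.

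**Figure D1:**
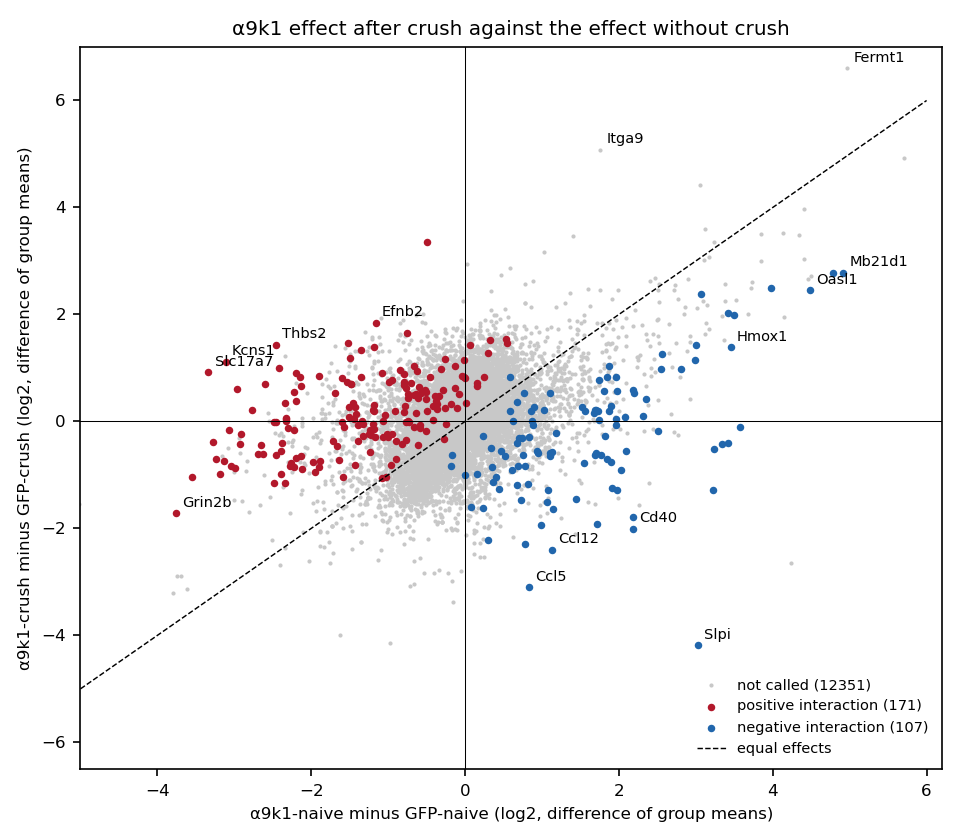
Each point is 1 of the 12629 genes, with the α9k1-naive minus GFP-naive difference of group means on the x axis and the α9k1-crush minus GFP-crush difference on the y axis (both log2). The 171 genes with a positive interaction (red) lie mostly left of zero and the 107 with a negative one (blue) mostly right of it, the dashed line marks equal effects, and Slpi lies lowest.

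Most genes with an interaction responded to α9k1 without crush and lacked a called response after it. Of the 171 positive genes, 140 were called lower with α9k1 without crush and not called between α9k1-crush and GFP-crush. Only 3 were called higher with α9k1 in both states, 3 were called higher after crush alone, 1 was called lower without and higher after crush, and 24 were called in neither state. Of the 107 negative genes, 88 were called higher in α9k1-naive and not called after crush. A further 9 were called in neither state, 5 were called higher in both, 3 were called higher without and lower after crush, and 2 were called lower after crush alone. The α9k1 difference of group means had a median of -1.19 without and 0.19 after crush over the positive genes, and of 1.56 and -0.32 over the negative genes. Over all genes these medians were -0.09 and 0.03. With covariates the α9k1 effect after crush had a variance of 3.11 times that within groups, against 0.654 times without crush, so that a missing call after crush does not show that the effect was absent.

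For the positive genes α9k1-naive was the group that most often stood apart, with the lowest mean of the 4 groups for 129 of the 171 genes. Of the 107 negative genes, 70 had their lowest mean in GFP-naive and 67 their highest in α9k1-naive. GFP-crush had the highest mean for 35 of the negative genes. By the crush effect, 55 negative genes were called higher after crush with GFP and not called with α9k1, 32 were called lower after crush with α9k1 and not called with GFP, 10 were higher with GFP and lower with α9k1, and 10 were lower with both. Among the positive genes, 93 were called higher after crush with α9k1 and not called with GFP, 40 were called lower after crush with GFP and not called with α9k1, 27 were lower with GFP and higher with α9k1, and 11 were higher with both. Centred on each gene's own mean, the median positive gene was at -0.74 in α9k1-naive and at 0.26 in α9k1-crush, and the median negative gene at -0.79 in GFP-naive and 0.63 in α9k1-naive.

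**Figure D2:**
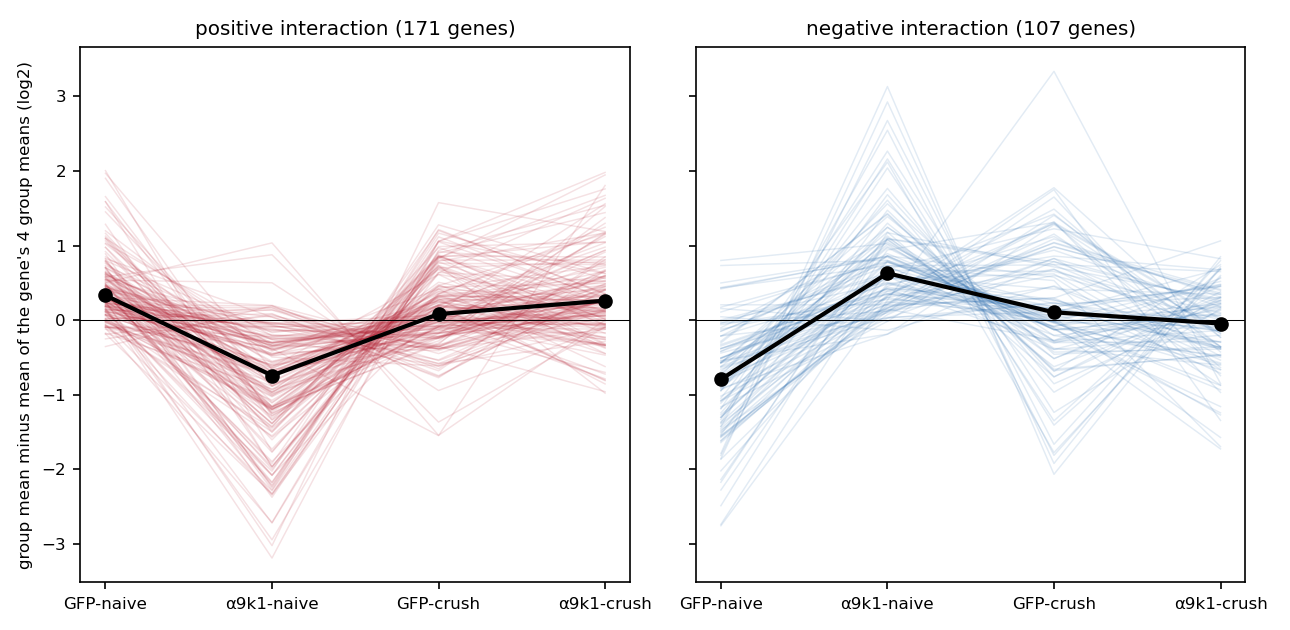
Thin lines are single genes, with the 4 group means minus their own average on the y axis (log2), and the black line is the median gene. The 171 positive genes (left) dip in α9k1-naive to a median of -0.74, and the 107 negative genes (right) are lowest in GFP-naive at a median of -0.79 and highest in α9k1-naive at 0.63.

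The transgenes checked the labels. Fermt1 (kindlin-1, ENSMUSG00000027356, chromosome 2, 132904389 to 132945906 in GRCm38) was at 0.77, 0.55, 0.49, 0.46 and 0.80 in the GFP-naive libraries and at 0.56, 0.42, 0.72 and 0.56 in GFP-crush. In α9k1-naive it ranged from 5.18 to 6.00 with a median of 5.62, and in α9k1-crush it was at 7.70, 6.82, 7.73 and 6.42. Every α9k1 library stood above every GFP library, and every α9k1-crush library above every α9k1-naive one. The interaction of Fermt1 was 1.43 (SE 0.56, adjusted p = 0.261), and 1.64 from group means (adjusted p = 0.00132 without covariates). Itga9 (α9 integrin, ENSMUSG00000039115, chromosome 9, 118606690 to 118901003) was between 1.77 and 2.40 in GFP-naive, between 2.38 and 5.16 in α9k1-naive, between 0.90 and 1.92 in GFP-crush and between 5.53 and 7.51 in α9k1-crush. A single α9k1-naive library, at 2.38, overlapped with GFP-naive. Its interaction was 3.79 (SE 1.07, adjusted p = 0.117), and 3.33 from group means (adjusted p = 0.000667 without covariates). Both transgenes were thus present at higher levels in the crush than in the naive α9k1 libraries, and the part of transgene level in the interactions below was not tested.

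The sorted cells held RNA of other cell types, and several of their marker lists moved with the interaction. The mean level of 16 Schwann cell and myelin genes was 7.84 ± 0.14 in GFP-naive, 6.37 ± 0.15 in α9k1-naive, 7.99 ± 0.19 in GFP-crush and 7.80 ± 0.34 in α9k1-crush. That of 14 endothelial and fibroblast genes was 5.48 ± 0.17, 3.75 ± 0.42, 4.80 ± 0.24 and 4.27 ± 0.40 in the same order, and that of 23 macrophage and antigen presentation genes was 4.85 ± 0.23, 5.84 ± 0.22, 6.28 ± 0.26 and 6.16 ± 0.31. The mean of 15 satellite glia genes was 7.59 ± 0.11, 7.64 ± 0.12, 7.03 ± 0.16 and 6.80 ± 0.21, and that of 20 pan-neuronal genes was 8.09 ± 0.10, 7.73 ± 0.10, 8.27 ± 0.16 and 8.59 ± 0.15. The summed log2 level of the 15 satellite glia genes, in which the most abundant genes weigh most, differed more between the naive groups. It spanned 15.6 to 16.0 in GFP-naive and 16.3 to 16.8 in α9k1-naive. After crush it spanned 14.8 to 15.0 with GFP and 14.2 to 14.8 with α9k1. Its part in the interactions was not tested. In these bulk libraries, fewer cells of a type and less RNA per cell cannot be told apart.

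Several genes of large-diameter sensory neurons were positive. Such neurons carry touch and muscle position, have thick myelinated axons rich in neurofilament, and fire fast. Of 17 proprioceptor and mechanoreceptor genes, 4 (23.5%, against 1.35% of all genes) were called positive (Kcns1, Nefh, Necab2 and Scn1a) and none negative, with a median interaction of 0.69. From group means 10 (58.8%) were positive and 1 negative, against 23.3% and 16.1% of all genes, with a median of 1.05. Of 18 nociceptor genes none was called, with a median of -0.63 (-0.14 from group means). The 2 lists were not compared by a test. With any 1 library left out, between 2 and 5 large-neuron genes were called positive, with 2 without GFP-naive replicate 4, α9k1-naive replicate 1, 2, 3 or 4 or α9k1-crush replicate 4. Nefh kept its call in 7 and Necab2 in 11 of these 19 fits. The mean log2 level of the 17 genes was 4.71 ± 0.16 in GFP-naive and 3.95 ± 0.07 in α9k1-naive, and 4.91 ± 0.24 in GFP-crush and 5.35 ± 0.14 in α9k1-crush. Of the called members, Kcns1 and Nefh had this order of groups. Scn1a had a lower mean in GFP-crush (3.20) than in GFP-naive (3.48). Necab2 had a mean of 2.83 in GFP-naive, 1.26 in α9k1-naive, 2.82 in GFP-crush and 2.71 in α9k1-crush. The summed log2 level of the 17 genes, in which the most abundant genes weigh most, was instead higher with α9k1 without crush: its median was 11.24 in GFP-naive and 11.83 in α9k1-naive, and 11.44 in GFP-crush and 11.77 in α9k1-crush.

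Kcns1, a modulatory subunit of voltage-gated potassium channels (chromosome 2, 164163619 to 164171113), was at 5.39, 4.48, 5.01, 4.60 and 4.41 in GFP-naive and between 1.41 and 2.03 in α9k1-naive, with a median of 1.61. After crush it was at 5.93, 5.93, 5.01 and 4.87 with GFP and at 6.98, 6.28, 6.63 and 6.34 with α9k1. The α9k1 libraries were all below the GFP libraries without crush and all above them after it. The interaction was 4.15 (SE 0.66, adjusted p = 0.0102), and 4.23 from group means. Slc17a7, the vesicular glutamate transporter VGLUT1, was at 6.68, 6.23, 6.02, 5.96 and 6.01 in GFP-naive and between 2.52 and 3.23 in α9k1-naive (median 2.82). It was at 6.94, 7.66, 6.84 and 6.89 in GFP-crush and at 8.57, 7.74, 8.14 and 7.58 in α9k1-crush. The groups did not overlap without crush and overlapped after it, and the interaction was 3.20 (SE 0.48, adjusted p = 0.00713).

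The heavy neurofilament chain Nefh was at 9.83, 9.02, 9.62, 9.12 and 9.47 in GFP-naive, between 7.03 and 7.42 in α9k1-naive (median 7.22), at 10.24, 10.59, 9.69 and 9.82 in GFP-crush and at 10.59, 9.92, 10.73 and 10.61 in α9k1-crush. All α9k1-naive libraries were the lowest, and the crush groups overlapped. Its interaction was 2.0 (SE 0.52, adjusted p = 0.0848), and that of the medium chain Nefm was 1.74 (SE 0.44, adjusted p = 0.0756). Both are also the only called members among 20 pan-neuronal genes. Htr1d, a serotonin receptor, was at 3.99, 4.2, 4.0, 3.53 and 3.15 in GFP-naive, between 0.89 and 1.68 in α9k1-naive (median 1.5), at 4.35, 4.77, 4.07 and 4.16 in GFP-crush and at 5.61, 5.16, 5.55 and 5.02 in α9k1-crush. As for Kcns1, the order of α9k1 and GFP turned over with the crush without overlap, and the interaction was 3.45 (SE 0.59, adjusted p = 0.0133).

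**Figure D3:**
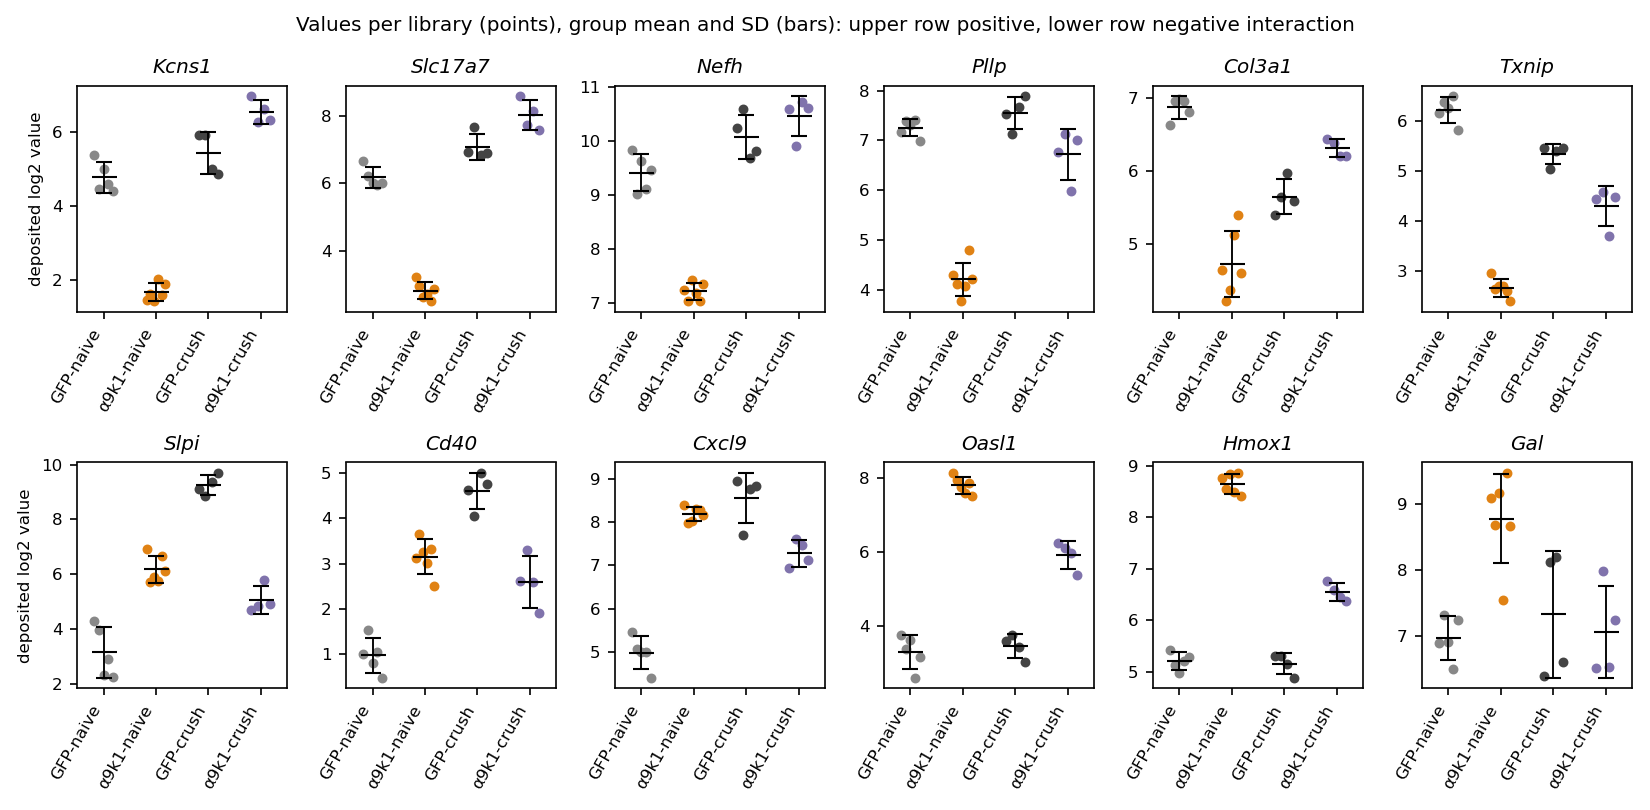
Points are the deposited log2 values of single libraries in the 4 groups, and bars are the group mean ± SD. In the upper row α9k1-naive has the lowest mean of each panel, and in the lower row Slpi, Cd40 and Cxcl9 peak in GFP-crush, whereas Oasl1, Hmox1 and Gal peak in α9k1-naive.

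Single channel and synaptic genes were also positive. Of 9 sodium channel genes, 3 (33.3%, against 1.35% of all genes) were positive, among them Scn1a, the channel NaV1.1 (2.38, SE 0.44, adjusted p = 0.0205), and Scn7a, a sodium-sensing channel also found in glia (1.69, SE 0.41, adjusted p = 0.0646). A single sodium channel gene was called on dropping GFP-naive replicate 3, α9k1-naive replicate 1, 2 or 4 or α9k1-crush replicate 4. Of 44 potassium and HCN channel genes, 3 (6.82%) were positive (Kcna1, Kcnj8 and Kcns1). Kcna1, the axonal channel KV1.1, had an interaction of 2.59 (SE 0.47, adjusted p = 0.0188). Of 57 synaptic vesicle and SNARE genes, Slc17a7, Syt2 and Syt3 (5.26%) were positive, and Syt2, a calcium sensor of fast transmitter release, had an interaction of 2.82 (SE 0.50, adjusted p = 0.016). The list's median was -0.01, and these 3 genes were above it. Grin2b, an NMDA receptor subunit, was the only called gene of 20 GABA, glycine and glutamate receptors (5% of the list; 2.53, SE 0.54, adjusted p = 0.0384), and it was lower with α9k1 in both states without overlap. Its call was lost when replicate 3 or 4 of GFP-naive was dropped. None of these lists had a negative member with covariates. From group means, 22 synaptic genes were positive and 10 (17.5%) negative, 21 potassium and HCN channel genes were positive and 5 negative, 14 of the receptors were positive and 1 negative, and 5 sodium channel genes were positive. These stand against 23.3% positive and 16.1% negative genes of all.

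With covariates and all 19 libraries in the fit, myelin genes formed the list with the largest share of calls. Of 16 Schwann cell and myelin genes, 8 (50%) were positive and none negative, against 1.35% of all genes, with a median interaction of 1.51. From group means, 14 (87.5%, against 23.3% of all genes) were positive and the median was 1.37. The called genes included the myelin or paranodal proteins Pllp, Mal, Prx, Ncmap and Cldn19, the node protein Gldn, and Ngfr, the low-affinity neurotrophin receptor. Leaving out any 1 library left between 2 and 10 called members and a median between 1.35 and 1.74, with 2 members on dropping replicate 2 of GFP-crush and 3 for replicate 4 of GFP-naive. Replicate 3 of GFP-naive, replicate 4 of α9k1-naive and replicate 4 of α9k1-crush each left 4 members, and replicate 2 of GFP-naive and replicate 3 of α9k1-naive each left 5. The summed log2 level of the 16 genes spanned 13.4 to 13.8 in GFP-naive, 12.2 to 12.6 in α9k1-naive, 13.5 to 14.1 in GFP-crush and 12.8 to 13.7 in α9k1-crush, and its part in the interactions of single genes was not tested.

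Pllp was at 7.18, 7.39, 7.31, 7.41 and 7.0 in GFP-naive, between 3.77 and 4.80 in α9k1-naive (median 4.17), at 7.53, 7.13, 7.67 and 7.89 in GFP-crush and at 6.77, 7.13, 5.99 and 7.0 in α9k1-crush. It was lower in every α9k1-naive library than in every other library, and the crush groups overlapped. Its interaction was 2.99 (SE 0.51, adjusted p = 0.0133), and those of Cldn19 and Ncmap were 2.82 and 2.78 (adjusted p = 0.016 and 0.0284). For Pllp and Ncmap the α9k1 and GFP libraries overlapped after crush and lay apart without it.

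Matrix and vascular genes followed. Of 47 extracellular matrix genes, 12 (25.5%, against 1.35% of all genes) were positive and none negative, with a median interaction of 0.57: Col1a1, Col1a2, Col3a1, Col4a2, Col5a2, Col6a1, Col6a2, Col15a1, Dcn, Nid2, Thbs2 and Vtn. Of 14 endothelial and fibroblast genes, 6 (42.9%, against the same 1.35%) were positive, 4 of which are also in the matrix list (Col1a1, Col1a2, Col3a1 and Dcn), and the others were Rgs5, a pericyte gene (2.76, SE 0.47, adjusted p = 0.0133), and Emcn, an endothelial sialomucin. The summed log2 level of these 14 genes spanned 10.6 to 10.9 in GFP-naive, 9.56 to 10.2 in α9k1-naive, 9.69 to 10.1 in GFP-crush and 9.03 to 9.35 in α9k1-crush, and its part in the results was not tested. The mean log2 level of all 47 matrix genes was 5.14 ± 0.12 in GFP-naive and 4.53 ± 0.14 in α9k1-naive, and 4.30 ± 0.15 in GFP-crush and 4.28 ± 0.18 in α9k1-crush, so that it was lower with α9k1 without crush. Their summed log2 level, which the most abundant genes weigh on most, had another order: its median was 13.27 in GFP-naive and 13.32 in α9k1-naive, and 12.80 in GFP-crush and 12.24 in α9k1-crush. With any 1 library left out, 7 to 12 matrix genes were called positive and 0 to 1 negative, with 7 positive without GFP-naive replicate 3, α9k1-naive replicate 4 or GFP-crush replicate 2. From group means 20 matrix genes (42.6%) were positive and 5 (10.6%) negative, against 23.3% and 16.1% of all genes.

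Col3a1, a fibrillar collagen, was at 6.62, 6.96, 6.98, 6.96 and 6.81 in GFP-naive, between 4.22 and 5.41 in α9k1-naive (median 4.63), at 5.4, 5.64, 5.97 and 5.59 in GFP-crush and at 6.44, 6.39, 6.2 and 6.21 in α9k1-crush. The groups did not overlap in either state, with α9k1 below GFP without crush and above it after crush, and the interaction was 3.57 (SE 0.46, adjusted p = 0.00221). Thbs2, a matricellular protein, was at 4.05, 4.05, 4.48, 3.99 and 3.74, between 0.85 and 2.64 (median 1.46), at 3.70, 3.43, 3.89 and 4.17, and at 5.10, 4.94, 4.95 and 5.95 in the same 4 groups. It showed the same turnover, with an interaction of 4.27 (SE 0.76, adjusted p = 0.016). Vtn, the adhesion protein vitronectin, was at 4.28, 4.93, 5.12, 4.72 and 4.82 in GFP-naive, between 1.02 and 2.23 in α9k1-naive (median 1.92), at 3.52, 2.79, 3.46 and 3.30 in GFP-crush and at 3.18, 3.20, 2.22 and 2.81 in α9k1-crush. GFP-crush lay below GFP-naive without overlap, both α9k1 groups overlapped with each other, the crush groups overlapped, and the interaction was 3.67 (SE 0.46, adjusted p = 0.00195). Dcn, the proteoglycan decorin, had the largest positive interaction of all protein-coding genes called in both fits (4.87, SE 1.18, adjusted p = 0.0662), but it was 2.20 from group means, and every α9k1 library was below every GFP library in both states.

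The other genes among the 12 with the largest positive interaction were Kcnj8, a potassium channel of pericytes (4.07, SE 0.48, adjusted p = 0.00184), Myoc, the secreted protein myocilin (3.95), Ntng1, a membrane-anchored netrin (3.59), Chn2, a Rac GTPase-activating protein (3.52), Tmem45a (3.45) and Col6a1 (3.22). Their adjusted p lay between 0.00184 and 0.0927. Kcnj8 was at 2.78, 3.43, 3.45, 3.30 and 3.48 in GFP-naive, between 0.06 and 0.74 in α9k1-naive (median 0.38), at 1.65, 0.56, 1.83 and 2.16 in GFP-crush and at 1.76, 1.24, 1.14 and 1.09 in α9k1-crush. The crush groups overlapped, and the gene was low in both of them.

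Adhesion and guidance receptors included a few positive genes. Of 32 integrin and focal adhesion genes, 3 (9.38%, against 1.35% of all genes) were positive, the laminin receptor chains Itga6 (1.63, SE 0.39, adjusted p = 0.0645) and Itga7 (1.11, SE 0.27, adjusted p = 0.0646), and Itgb8, which binds latent TGF-β (1.46, SE 0.27, adjusted p = 0.0205). Itga6 was at 4.45, 4.83, 4.65, 4.43 and 4.49 in GFP-naive, between 3.54 and 4.10 in α9k1-naive (median 3.72), at 3.95, 4.2, 4.27 and 4.42 in GFP-crush and at 5.25, 5.19, 4.73 and 4.65 in α9k1-crush. For Itga6 and Itga7 alike, all α9k1 libraries were below GFP without crush and above GFP after it. A single integrin gene was called on dropping GFP-naive replicate 1 or 3 or α9k1-naive replicate 2 or 4. Of 38 axon guidance genes, Efnb2, Nrp1 and Slit2 (7.89%) were positive, and 1 gene was called on dropping GFP-naive replicate 2 or 3, α9k1-naive replicate 1 or 2, GFP-crush replicate 2 or α9k1-crush replicate 4. Efnb2, the ligand ephrin-B2, was at 2.94, 2.58, 2.63, 2.20 and 2.34 in GFP-naive, between 1.05 and 1.95 in α9k1-naive (median 1.30), at 2.37, 2.42, 1.88 and 2.26 in GFP-crush and at 4.29, 3.98, 4.53 and 3.52 in α9k1-crush. Its interaction was 2.82 (SE 0.44, adjusted p = 0.0102), and α9k1-crush stood above all 3 other groups.

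Chaperones included a few positive genes. Of 73 heat shock and chaperonin genes, 4 were positive (Hspa1a, Hspa1b, Hspa2 and Hspa8) and 1 negative (Hspb1), with a median of 0.10, which was -0.03 with median-centred libraries. These are 5.48% and 1.37% of the list, against 1.35% and 0.847% of all genes, so that the negative share is near that of all genes. From group means 24 (32.9%) were positive and 10 (13.7%) negative, against 23.3% and 16.1%. Neither sign had a call when replicate 2 of GFP-crush was dropped, and over all libraries dropped in turn 0 to 5 were positive and 0 to 1 negative. Hspa1a, an inducible chaperone, was called higher with α9k1 both without crush (0.58, adjusted p = 0.0368) and after it (2.17, adjusted p = 0.0204), and its interaction was 1.59 (SE 0.38, adjusted p = 0.0651). Its mean was 6.37 in GFP-naive, 6.66 in α9k1-naive, 4.42 in GFP-crush and 5.69 in α9k1-crush. It was thus lower after crush with GFP and with α9k1 alike, without overlap, and by less with α9k1. The 2 naive groups overlapped. Hspa1a and Hspa1b are near-identical copies, and their reads may have been split. Of 44 tubulin, microtubule and neurofilament genes, Nefh and Nefm (4.55%) were positive and Stmn4, Tuba1c and Tubb6 (6.82%) negative, whereas from group means 17 (38.6%) were positive and 7 (15.9%) negative. With covariates, either count fell to 0 on dropping 1 library, both of them for replicate 3 of GFP-naive, replicates 1 and 4 of α9k1-naive and replicate 4 of α9k1-crush.

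Inflammatory lists held several of the negative genes. Of the 107 negative genes 33 were in any of the 69 lists examined, as were 56 of the 171 positive ones, so that most called genes are in none of them. Of 27 cytokine and chemokine genes, 6 (22.2%) were negative and none positive, against 0.847% of all genes, with a median interaction of -0.87. From group means 19 (70.4%, against 16.1% of all genes) were negative, 3 were positive and the median was -1.10. The 6 were the chemokines Ccl5, Ccl7, Ccl12, Cxcl9, Cxcl13 and Cxcl16, which draw leukocytes. With any 1 library left out, between 1 and 7 genes of the list were called negative, with 1 when GFP-naive replicate 3 or α9k1-crush replicate 4 was left out and 3 without GFP-naive replicate 4. The mean level of the list was 3.47 ± 0.08 in GFP-naive, 5.25 ± 0.13 in α9k1-naive, 4.06 ± 0.19 in GFP-crush and 4.64 ± 0.18 in α9k1-crush, so that the α9k1-naive libraries had the highest mean.

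Slpi, a secreted inhibitor of leukocyte proteases (chromosome 2, 164354070 to 164389095), had the largest interaction of either sign. It was at 4.30, 3.96, 2.34, 2.93 and 2.26 in GFP-naive and between 5.73 and 6.91 in α9k1-naive, with a median of 6.02. It reached 9.09, 8.86, 9.35 and 9.70 in GFP-crush, against 4.71, 4.84, 5.81 and 4.91 in α9k1-crush. The groups did not overlap in either state: α9k1 was above GFP without crush and below it after crush. The interaction was -8.20 (SE 1.0, adjusted p = 0.00195), and -7.21 from group means. Slpi was 1 of only 3 negative genes with both α9k1 effects called in opposite directions (2.71, adjusted p = 0.00102 without crush, and -5.49, adjusted p = 0.0237 after it).

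Cd40, a costimulatory receptor of the TNF receptor family, was at 1.0, 1.53, 0.80, 1.04 and 0.47 in GFP-naive, between 2.50 and 3.66 in α9k1-naive (median 3.20), at 4.62, 4.05, 5.0 and 4.76 in GFP-crush and at 2.61, 3.30, 2.59 and 1.90 in α9k1-crush. It followed the order of Slpi, with an interaction of -4.32 (SE 0.72, adjusted p = 0.0133). Cxcl9, a chemokine induced by interferon-γ, was at 5.46, 5.05, 5.0, 4.99 and 4.39, between 7.99 and 8.39 (median 8.23), at 8.96, 7.70, 8.77 and 8.84, and at 6.93, 7.6, 7.47 and 7.12 in the same 4 groups. Each GFP-crush library was above each α9k1-crush library, and the interaction was -4.02 (SE 0.59, adjusted p = 0.00674). Ccl5 was at 4.58, 5.20, 3.92, 4.89 and 4.29 in GFP-naive, between 4.84 and 6.09 in α9k1-naive (median 5.39), at 7.04, 6.43, 7.06 and 7.24 in GFP-crush and at 3.41, 4.44, 3.97 and 3.59 in α9k1-crush. Its naive groups overlapped and its crush groups did not, and the interaction was -3.42 (SE 0.73, adjusted p = 0.0384).

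The other genes among the 12 with the most negative interaction were Cryba2, a crystallin (-4.43), the chemokine Ccl12 (-4.36), the chemokine receptor Ccr7 (-4.08), the neuropeptide galanin, Gal (-3.88), Bcl2a1d, a survival protein of the Bcl-2 family (-3.57), Il4i1, an amino acid oxidase of immune cells (-3.40), the transcription factor Irf8 (-3.40) and Cst7, a protease inhibitor of leukocytes (-3.39). Their adjusted p lay between 0.00713 and 0.0546. Ccl12 was at 0.31 to 0.99 in GFP-naive, 0.55 to 3.38 in α9k1-naive, 3.0, 2.89, 4.08 and 3.13 in GFP-crush and 0.66 to 1.09 in α9k1-crush. GFP-crush stood above both other low groups, and a single α9k1-naive library reached it. Bcl2a1d is 1 of several near-identical genes, so that its reads may be shared with its copies. It was at 2.57, 2.63, 2.42, 2.64 and 3.21 in GFP-naive and between 4.77 and 6.36 in the other 3 groups.

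Some genes of antigen presentation were negative. Of 23 macrophage and antigen presentation genes, 3 (13%, against 0.847% of all genes) were negative (H2-Aa, H2-Eb1 and Cd74, all of the MHC class II pathway) and 1 was positive (Cybb, a subunit of the phagocyte oxidase), with a median of -0.67. From group means 15 (65.2%, against 16.1% of all genes) were negative and none positive, and the median was -1.26. Cybb kept its call in 11 of the 19 fits with 1 library left out. No member was called negative when GFP-naive replicate 3 or 4, α9k1-naive replicate 4 or α9k1-crush replicate 4 was left out. H2-Aa was at 5.59, 5.99, 5.83, 5.82 and 5.36 in GFP-naive, between 7.23 and 7.81 in α9k1-naive (median 7.58), at 8.50, 7.80, 8.51 and 8.66 in GFP-crush and at 7.35, 8.00, 7.6 and 7.74 in α9k1-crush. Only GFP-naive stood apart, and the interaction was -2.12 (SE 0.46, adjusted p = 0.0425). The summed log2 level of the 23 genes spanned 10.03 to 10.6 in GFP-naive, 11.4 to 12.04 in α9k1-naive, 11.99 to 12.7 in GFP-crush and 11.7 to 12.4 in α9k1-crush, and its part in the result was not tested. Of 46 proteasome subunits, Psmb8 and Psmb9 (4.35%) were negative (-1.34, SE 0.26, and -1.13, SE 0.29; adjusted p = 0.0272 and 0.0832), and both belong to the immunoproteasome, the form that is induced by interferon. Psmb8 stayed called in all 19 fits with 1 library left out and Psmb9 in 10 of them.

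Of 33 interferon response genes, 4 (12.1%, against 0.847% of all genes) were negative (Gbp2, Gbp5, Mb21d1 and Oasl1) and none positive, with a median of -0.61. From group means 17 (51.5%) were negative, against 16.1% of all genes. With any 1 library left out, between 1 and 4 genes of the list were called negative, with 1 without α9k1-naive replicate 1, GFP-crush replicate 2 or α9k1-crush replicate 4. Mb21d1, the cytosolic DNA sensor cGAS, was at 1.44, 1.30, 1.68, 1.24 and 1.04 in GFP-naive, between 6.03 and 6.52 in α9k1-naive (median 6.22), at 0.78, 0.83, 1.41 and 1.22 in GFP-crush and at 3.76, 4.34, 3.74 and 3.53 in α9k1-crush. It was called higher with α9k1 in both states, and the interaction was -1.78 (SE 0.40, adjusted p = 0.0479). Oasl1, an interferon-induced regulator, was at 3.77, 3.40, 3.62, 2.61 and 3.18 in GFP-naive, between 7.51 and 8.14 in α9k1-naive (median 7.81), at 3.60, 3.77, 3.45 and 3.03 in GFP-crush and at 6.24, 6.11, 5.98 and 5.38 in α9k1-crush. α9k1 was above GFP in both states without overlap, though the fit called the effect without crush alone, and the interaction was -3.07 (SE 0.51, adjusted p = 0.0132).

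Interferon-stimulated genes are switched on through 2 short DNA elements, the gamma-activated site (GAS), bound by STAT dimers, and the interferon-stimulated response element (ISRE), bound by IRF and STAT complexes. The 250 bases before each gene's start were taken from the RefSeq annotation (GRCm38.p6) and searched on both strands for the GAS letters TTCNNNGAA, where N is any base, and for the ISRE letters GAAA, any 2 bases and GAAA. Of the 107 negative genes 68 were in the promoter table, and 12 of these (17.6%) held the GAS and 7 (10.3%) the ISRE letters. Of the 171 positive genes 123 were in it, with 11 (8.94%) and 2 (1.63%). Over all 8366 genes found, the shares were 6.92% and 3%. The AP-1 letters TGANTCA were in 13.2% of the negative, 8.13% of the positive and 5.57% of all genes, so that a larger share in the negative genes was not particular to the interferon elements. The letters of NF-κB, GGG, any 2 bases and TTTCC, were in 2.94%, 0.813% and 1.6%, and those of the cAMP response element in 2.94%, 1.63% and 3.23%. A match is a description of letters and not a bound site. The first 5 stretches are shown because these negative genes, all GTPases induced by interferon, hold the ISRE letters, and the last 3 because they hold the GAS letters beside a factor, an adhesion molecule and a proteasome subunit of the same response. The stretches were picked by function. The negative genes Adcyap1 and Slamf8 also held the ISRE letters. Fbxo27, Ippk, Rnf10, Samhd1, Serpina1f and Tgif1 held the GAS letters and are not shown. Cxcl9, Oasl1 and Psmb9, negative genes of the interferon response, held neither. Capitals mark 1 match of the motif named, and the Irf8 and Igtp stretches each hold a further GAS match in lower case. All run 5′ to 3′ on the plus strand, and the mouse letters hold only in so far as the animals were mice.

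Gbp2, ISRE, chr3:142620579-142620638: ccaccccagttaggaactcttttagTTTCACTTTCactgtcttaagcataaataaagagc
Gbp2b, ISRE, chr3:142594685-142594744: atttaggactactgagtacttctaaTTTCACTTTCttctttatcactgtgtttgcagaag
Gbp5, ISRE, chr3:142496744-142496803: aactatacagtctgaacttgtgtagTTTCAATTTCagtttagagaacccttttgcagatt
Gbp7, ISRE, chr3:142530258-142530317: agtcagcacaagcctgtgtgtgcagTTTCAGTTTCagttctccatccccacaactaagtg
Igtp, ISRE, chr11:58199497-58199555: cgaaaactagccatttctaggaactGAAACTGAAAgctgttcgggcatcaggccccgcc
Irf8, GAS, chr8:120736162-120736220: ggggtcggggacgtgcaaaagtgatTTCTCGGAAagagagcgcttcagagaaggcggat
Icam1, GAS, chr9:21015873-21015931: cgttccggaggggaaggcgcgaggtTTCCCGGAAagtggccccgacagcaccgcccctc
Psmb8, GAS, chr17:34198073-34198131: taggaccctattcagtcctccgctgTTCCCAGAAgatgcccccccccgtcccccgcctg

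Gbp2, Gbp2b, Gbp5 and Gbp7, which lie side by side on chromosome 3, had interactions of -1.58, -1.46, -1.66 and -1.62 (SE 0.42, 0.38, 0.43 and 0.37; adjusted p = 0.096, 0.09, 0.0888 and 0.0491). They are related in sequence, and reads may have been shared among them. Igtp, an immunity-related GTPase, had -1.44 (SE 0.37, adjusted p = 0.0839). Of the 19 fits with 1 library left out, Gbp2 kept its call in 5, Gbp2b in 4, Gbp5 in 6, Gbp7 in 15 and Igtp in 8. Gbp5 was at 3.58, 3.40, 3.21, 3.64 and 3.01 in GFP-naive, between 5.69 and 6.06 in α9k1-naive (median 5.96), at 3.79, 3.95, 4.52 and 4.11 in GFP-crush and at 5.27, 5.20, 5.15 and 4.65 in α9k1-crush, with no overlap between α9k1 and GFP in either state. Irf8, a factor of interferon signalling and of myeloid cells, was at 2.0, 2.50, 2.65, 1.44 and 1.06, between 4.57 and 5.59 (median 5.20), at 5.30, 4.52, 4.65 and 4.92, and at 4.18, 4.62, 4.47 and 4.01 in the same 4 groups. Only GFP-naive stood apart. Icam1, an adhesion molecule for leukocytes, had an interaction of -1.5 (SE 0.28, adjusted p = 0.0221). Gbp2b, Gbp7, Igtp and Icam1 were chosen after their values were seen.

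Of 24 NF-κB pathway genes, Birc2 and Birc3 were negative, both ubiquitin ligases of TNF receptor signalling, which is 8.33% against 0.847% of all genes, and the median was -0.03. From group means 10 (41.7%, against 16.1% of all genes) were negative and none positive, with a median of -0.24. Both calls were lost on dropping any of GFP-naive replicates 1, 3 and 4, α9k1-naive replicates 1 and 4 and α9k1-crush replicate 4, and 1 of them on dropping α9k1-naive replicate 2 or 3, GFP-crush replicate 2 or α9k1-crush replicate 1. Birc3 was at 2.03, 2.35, 1.96, 2.30 and 1.89 in GFP-naive, between 4.70 and 5.36 in α9k1-naive (median 5.11), at 2.70, 2.78, 3.22 and 3.12 in GFP-crush and at 4.37, 4.60, 4.22 and 4.34 in α9k1-crush. α9k1 was above GFP in both states without overlap, by less after crush, and the interaction was -1.52 (SE 0.38, adjusted p = 0.0755). That of Birc2 was -1.07 (SE 0.25, adjusted p = 0.0614).

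Injury and stress genes also held negative members. The list of 29 regeneration-associated genes holds genes that peripheral axotomy is known to induce in DRG neurons. Of these, 3 (10.3%, against 0.847% of all genes) were negative (Gal, Hspb1 and Stmn4) and none positive, with a median of -0.59. None stayed called when replicate 2 of GFP-crush was dropped, and 1 gene was called on dropping replicate 3 of GFP-naive or replicate 1 or 4 of α9k1-naive. From group means 13 (44.8%, against 16.1% of all genes) were negative and 1 positive. The paper states that a cut of the central branch does not start this program. From group means the list's median crush effect with GFP was -0.06. Gal was at 6.89, 7.31, 6.90, 6.49 and 7.23 in GFP-naive, between 7.54 and 9.48 in α9k1-naive (median 8.90), at 6.38, 8.12, 8.20 and 6.59 in GFP-crush and at 6.51, 7.98, 6.52 and 7.24 in α9k1-crush. Only α9k1-naive stood above GFP-naive, and the crush libraries spread widely in both groups. The interaction was -3.88 (SE 0.82, adjusted p = 0.0379), and -2.08 from group means. Of 24 neuropeptide genes, Gal and Adcyap1, which encodes PACAP, were negative (8.33%), and Adcyap1 was close to the threshold (-2.38, SE 0.64, adjusted p = 0.0993) and kept its call in 3 of the 19 fits with 1 library left out. From group means 4 of the 24 were positive and 4 negative.

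Hmox1, heme oxygenase-1 (chromosome 8, 75093591 to 75100596), was at 5.43, 5.12, 4.97, 5.21 and 5.29 in GFP-naive, between 8.41 and 8.87 in α9k1-naive (median 8.66), at 5.30, 5.30, 5.16 and 4.87 in GFP-crush and at 6.77, 6.59, 6.45 and 6.38 in α9k1-crush. The spread within groups was small, α9k1 was above GFP in both states, and the interaction was -2.57 (SE 0.30, adjusted p = 0.00184), with Kcnj8 the smallest adjusted p of the genes named. With covariates it was the only negative gene of 30 in the Nrf2 antioxidant list (3.33%, against 0.847% of all genes), where Ftl1 (ferritin light chain) was positive (1.78, SE 0.37, adjusted p = 0.0357). From group means 14 (46.7%) of the 30 were negative and 3 (10%) positive, against 16.1% and 23.3% of all genes. Srf, a transcription factor of the immediate early response, was between 3.84 and 4.13 in α9k1-naive and at or below 2.37 in the other 3 groups (-1.53, SE 0.34, adjusted p = 0.0425). It was the only called gene of 15 immediate early factors (6.67%), whose median was positive (0.48, and 0.13 from group means). From group means 3 of the 15 were positive and 4 negative. Timp1, an inhibitor of metalloproteases, had an interaction of -1.22 (SE 0.28, adjusted p = 0.0537). It was the only called gene of 36 metalloproteases and inhibitors (2.78%), with a list median of 0.04.

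**Figure D4:**
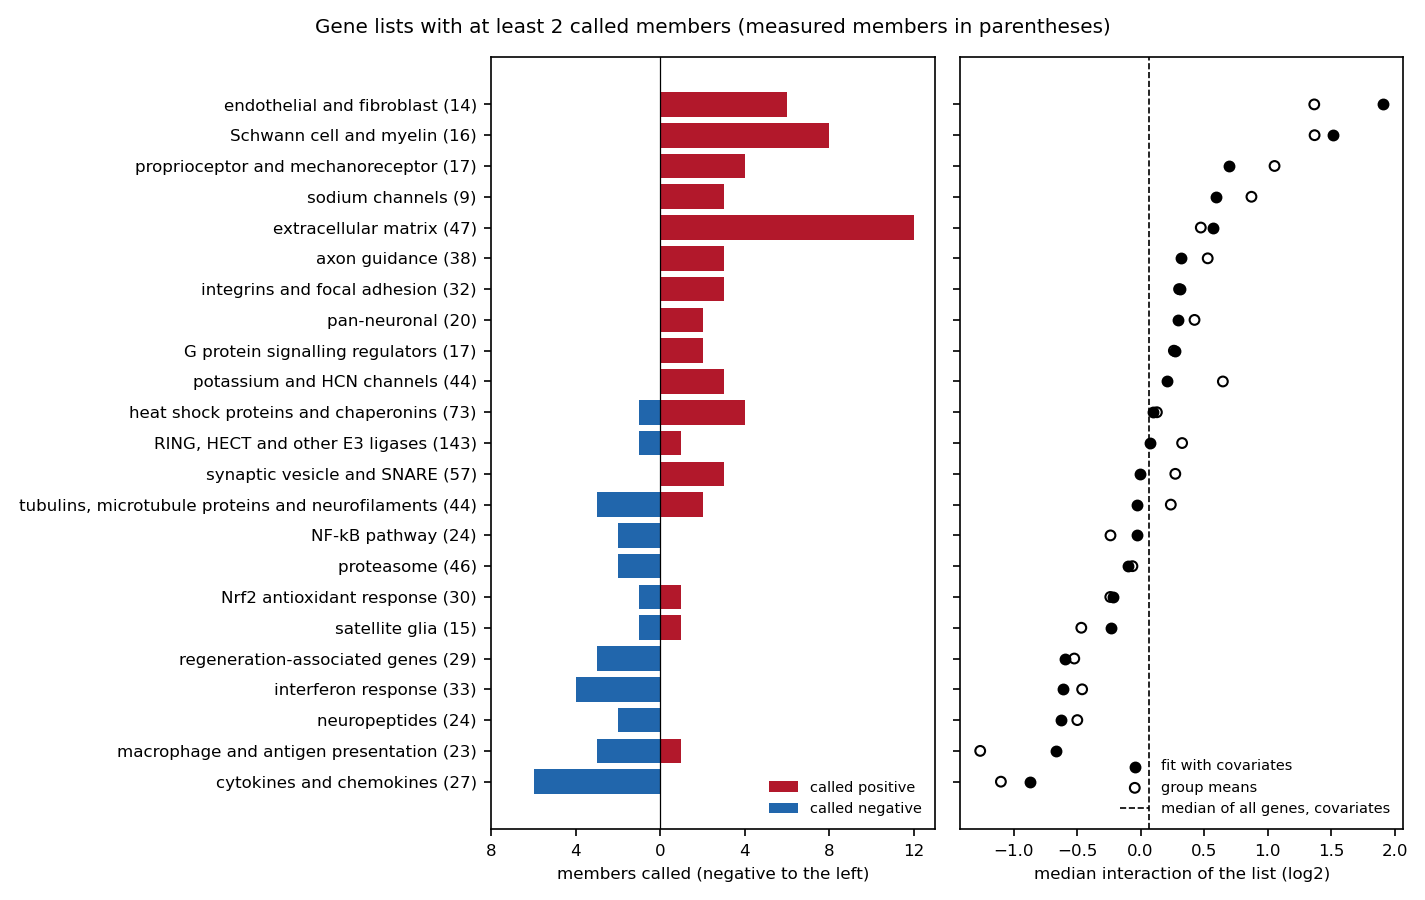
The left panel counts the members called positive (red) and negative (blue) in the 23 lists with at least 2 calls, and the right panel gives each list's median interaction with covariates (filled) and from group means (open), with the median of all genes as a dashed line. The endothelial and fibroblast list (median 1.91) and the Schwann cell and myelin list (1.51) are at the top, and the cytokine and chemokine list (-0.87) is at the bottom.

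No member was called in 30 of the 69 lists. As only 1.35% of all genes were positive and 0.847% negative, a short list without a call is near the share of all genes and says little about its function. Among these lists were oxidative phosphorylation (76 genes, median 0.03), cytosolic ribosomal proteins (77, -0.07), mitochondrial ribosomal proteins (76, -0.05), Rab GTPases and effectors (86, 0.01), kinesins, dyneins and dynactin (46, 0.24), autophagy machinery (41, 0.10), deubiquitinases (60, 0.21), chromatin modifiers and remodelers (84, 0.32), calcium channels (11, 0.29) and the AP-1 family (10, 0.15). From group means, where 23.3% of all genes were positive and 16.1% negative, several of them had calls: 21 positive (51.2%) and 2 negative of the 41 autophagy genes, 22 (36.7%) and 1 of the 60 deubiquitinases, 23 (50%) and 6 of the 46 motor genes, and 1 and 31 (40.3%) of the 77 ribosomal proteins. The counts of these functions thus rested on whether the covariates were in the fit. For 4 of the 5 lists that the study drew from these same samples, which are not independent of them, the fit with covariates called 0 of 23 autophagy genes, 0 of 17 ER and endosome genes, 1 negative of 52 ubiquitin genes and 2 positive of 83 transport genes (Itga6 and Syt3). From group means 18, 15, 38 and 67 of them (78.3%, 88.2%, 73.1% and 80.7%) were positive, against 23.3% of all genes, and 1 ubiquitin gene was negative. Their medians with covariates were 0.14, 0.10, 0.17 and 0.27, against 0.60, 0.73, 0.49 and 0.71 from group means. Of the 4 candidate regulators in the fifth, none was called with covariates and 1 was positive from group means, with medians of 0.48 and 0.47.

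The called genes differed from all genes in length and little in level or base composition. The median longest transcript had 3699 bases for positive, 2181 for negative and 2894 for all genes, the median GC content was 50.6%, 49.8% and 49.7%, and the median level was 4.21, 4.49 and 4.37. After removal of trends in GC content and transcript length from every library, 147 genes were positive and 98 negative, of which 139 and 97 were among those called before.

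The number of calls depended on single libraries and on the covariates. With 1 library left out at a time, between 68 and 268 genes were positive and between 44 and 173 negative. Positive genes were fewest when replicate 2 of GFP-crush (68), replicate 3 of GFP-naive (70) or replicate 4 of α9k1-crush (76) was dropped. They numbered 99 when replicate 4 of GFP-naive was dropped, 103 and 104 for replicates 4 and 2 of α9k1-naive, and 268 for replicate 2 of α9k1-crush. For negative genes the lowest counts came on dropping replicate 4 of α9k1-crush (44), replicate 3 of GFP-naive (48), replicate 2 of GFP-crush (56), replicate 4 of α9k1-naive (58), and replicate 4 of GFP-naive or replicate 1 of α9k1-naive (59 each). Dropping replicate 2 of α9k1-crush gave 173. No called gene changed sign when a library was left out, and 41 positive and 25 negative genes stayed called in all 19 of these fits. The former include Kcns1, Slc17a7, Htr1d, Scn1a, Kcna1, Syt2, Pllp, Cldn19, Col3a1, Thbs2, Vtn, Kcnj8, Efnb2 and Itgb8. The latter include Slpi, Cd40, Cxcl9, Cst7, Il4i1, Bcl2a1d, Oasl1, Hmox1, Psmb8, Icam1 and Myo1g.

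**Figure D5:**
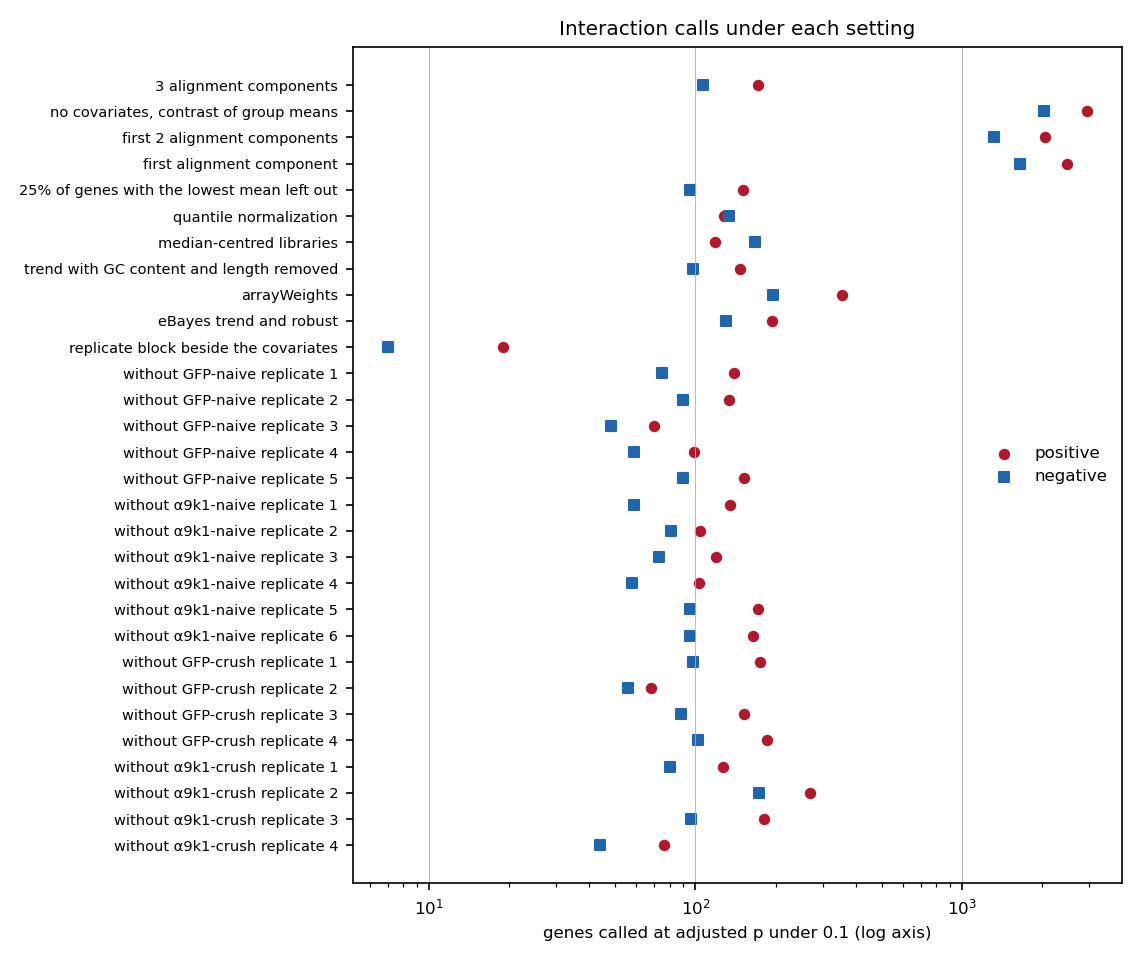
Each row is one way of fitting, with the number of genes with a positive (red circles) and a negative (blue squares) interaction at an adjusted p under 0.1 on a log axis. The fit used here gave 171 and 107 genes, the fit without covariates 2943 and 2027, and the fit with a replicate block 19 and 7.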

How the data were processed

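RNA was sequenced from sorted cells of 19 libraries (5 GFP-naive, 4 GFP-crush, 6 α9k1-naive and 4 α9k1-crush). The authors aligned reads with STAR to mm10, collected Picard metrics, quantified genes with Salmon, removed genes with few reads, and deposited log2 values which cqn had normalized for depth and gene length. The authors also deposited, per library, metrics that are read counts, fractions, percent values, ratios and other measures. Of these, 48 were scaled and reduced to principal components. Authors' fold changes, p-values and FDR were deposited in a further table and were not used. The value table names no genes: its lines were matched to the gene table by order, which was checked on abundant genes. No column belonged to a sample outside this series (0 columns).

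The interaction was fitted with limma 3.58.1 in R 4.3.3 on all 12629 genes, with 4 group means and 3 components, on the deposited log2 values, without a further filter. The batch of the study's model is not in the labels and was left out. Depth was 36.4 to 87.6 M read pairs; the log2 values carry no counts, and no counting interval is given. The members and lists were chosen with earlier results of these data known. Named genes were Fermt1, Itga9, the 12 largest interactions of each sign among protein-coding genes called with the same sign from group means, and in each list up to 3 called members per sign with the smallest p, or up to 2 where none was called. The code was tested on simulated data. The alternatives were the group means without covariates, 1 or 2 components, 25% of genes left out, other scalings, a trend in GC content and length, library weights, a robust trend, a replicate block and each library left out. Not all genes that this rule named are reported here, among them most of those from lists without a call.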

Additional observations from a re-analysis of the deposited data

Results flagged for a closer look

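The 171 positive and 107 negative interactions are themselves differences between effects of α9k1 in 2 states, tested as an interaction term.

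In 380 groups of 4 to 6 libraries, 1 group for each of the genes examined and each condition, 20 groups (5.26%) had a library whose gap to its nearest neighbour was a larger part of the range than Dixon's limit allows, where chance gives about 5%. Among genes with a positive interaction these were Thbs2 in α9k1-crush replicate 4 (5.95), Kcnj8 in GFP-naive replicate 1 (2.78), Vtn in α9k1-naive replicate 1 (1.02), Chn2 in α9k1-naive replicate 5 (3.45), Itgb8 in GFP-crush replicate 3 (5.53) and Itga7 in GFP-naive replicate 4 (7.04). Neuronal genes were Nefh in α9k1-crush replicate 2 (9.92), Slc17a7 in GFP-crush replicate 2 (7.66) and Syt2 in α9k1-crush replicate 1 (6.66). Txnip was set apart in GFP-crush replicate 2 (5.03) and in α9k1-crush replicate 3 (3.70).

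Among genes with a negative interaction they were Ccr7 in α9k1-crush replicate 1 (3.19), Cxcl9 in GFP-crush replicate 2 (7.70), Bcl2a1d in GFP-naive replicate 5 (3.21), Srf in GFP-naive replicate 5 (2.0), Adcyap1 in GFP-crush replicate 3 (6.82), Psmb8 in α9k1-naive replicate 5 (6.18), Tuba1c in α9k1-naive replicate 4 (8.42) and Gbp2b in α9k1-crush replicate 3 (3.89). Osmr, a receptor whose interaction was not called (-1.62, adjusted p = 0.117 in limma), stood apart in GFP-naive replicate 1 (1.78). All are deposited log2 values.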

How the results depend on the processing

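Of 95 genes followed none changed the sign of its interaction in any setting that tested it (not all remained when 25% of genes were left out), and most changes were in calls. Against 171 positive and 107 negative genes, the group means without covariates gave 2943 and 2027, 1 component 2468 and 1652, 2 components 2048 and 1318, library weights 354 and 196, and median-centred libraries 167 negative genes. The number of lists with a positive member was 26, against 64 without covariates, 64 with 1 component, 62 with 2 and 43 with library weights, and that with a negative member was 19, against 61, 59 and 58 in the first 3. The settings that left out 25% of genes, normalized by quantiles, removed the GC and length trend or used a robust trend stayed within 1.5 times of these counts. The replicate block gave 19 positive and 7 negative genes, lists with such a member fell to 9 and 1, and 13 of 90 called genes stayed called. The numbers do not pair the samples: over 25 pairs of libraries with the same number the correlation of deviations was -0.269 to 0.149 (median 0.0204), 3 of 19 libraries correlated best with their own number, and the block left 7 residual degrees of freedom. With each library left out, positive genes numbered 68 to 268, negative genes 44 to 173, lists with a positive member 15 to 36 and with a negative member 8 to 28, and 43 to 90 of the 90 called genes stayed called. The cause of these changes was not tested. Since the values carry no counts, the depth of single genes is unknown.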

Other observations

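Txnip, an inhibitor of thioredoxin chosen after its values were seen, was at 6.15, 6.37, 6.26, 6.49 and 5.82 in GFP-naive, between 2.39 and 2.95 in α9k1-naive (median 2.67), at 5.46, 5.03, 5.41 and 5.45 in GFP-crush and at 4.44, 4.58, 3.70 and 4.48 in α9k1-crush. α9k1 was below GFP in both states without overlap, by less after crush, and the interaction was 2.97 (SE 0.43, adjusted p = 0.006 in limma). In 4 further lists 1 gene was called with covariates, between 3.33% and 4% of each list, against 1.35% positive and 0.847% negative of all genes, so that these calls say little about the lists. Axin1, a scaffold of Wnt signalling, was positive (1.33, adjusted p = 0.0832 in limma; 1 of 30 Wnt and Notch genes), as was Tgfbr2, a TGF-β receptor (1.65, adjusted p = 0.0693 in limma; 1 of 25). Egln3, an oxygen sensor, was positive (2.54, adjusted p = 0.0789 in limma; 1 of 29), and Fdps, an enzyme of the cholesterol pathway, negative (-0.88, adjusted p = 0.0956 in limma; 1 of 27). From group means 16 (59.3%) of the 27 cholesterol genes were negative and 2 positive, against 16.1% and 23.3% of all genes. The median of the 27 was -0.53, and -0.39 with covariates. In the lists of Axin1, Tgfbr2 and Egln3, 20%, 20% and 10.3% were negative from group means, and 23.3%, 32% and 20.7% positive. With 1 library left out at a time, Axin1 kept its call in 8, Tgfbr2 in 11, Egln3 in 10 and Fdps in 2 of 19 fits.

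Of 15 satellite glia genes, 1 of each sign was called (6.67% each, against 1.35% and 0.847% of all genes). Sparcl1, a matricellular protein, was positive (2.60, SE 0.60, adjusted p = 0.0537 in limma) and Fabp7, a fatty acid binding protein, negative (-1.23, SE 0.29, adjusted p = 0.0626 in limma), and the list's median was -0.23. From group means 3 (20%) were positive and 7 (46.7%) negative, against 23.3% and 16.1% of all genes, with a median of -0.47. Of 40 histone genes 1 (2.5%) was positive (H2afx), the median was -0.50, and 24 (60%) were negative from group means.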
